A study of Mus musculus with 48 samples.

Results

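Oligodendrocyte precursor genes were examined across the whole series. The set holds 8 genes, namely Pdgfra, Cspg4, Olig1, Olig2, Sox10, Gpr17, Enpp6 and Bmp4, chosen by name and found by mouse gene symbol. All 8 were among the 48709 genes of the count tables, each under 1 Ensembl identifier. RNA-sequencing was performed on 48 libraries from 46 male C57BL/6J mice in 8 groups. In the first experiment the dentate gyrus (DG), the input layer of the hippocampus, was taken from Fmn2+/+ mice and from Fmn2-/- mice, in which the formin 2 gene is disrupted, at 3 months (5 mice of each genotype) and at 8 months (3 Fmn2+/+ and 5 Fmn2-/- mice). In the second experiment 7 mice labelled FMN2-/-_APP and 9 mice labelled FMN2 +/+ APP were compared in DG at 3 months, all of them carrying the APPPS1-21 amyloid transgenes, which the Thy1 promoter drives in neurons. In the third experiment 6 APP mice and 6 wild-type mice, labelled as 4 months old, were compared. Their sample titles name the prefrontal cortex (PFC), whereas the tissue label is dentate gyrus.

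Oligodendrocyte precursor cells are proliferating glia that persist in the adult brain and give rise to myelinating oligodendrocytes. They respond to platelet-derived growth factor through the receptor Pdgfra and carry the NG2 proteoglycan Cspg4 on their surface. The transcription factors Olig1, Olig2 and Sox10 are kept through the whole lineage. Gpr17 and Enpp6 mark the cells that have begun to differentiate, and Bmp4 encodes a secreted ligand known to hold precursors back from that step and also made by cells outside the lineage.

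Reference sequence upstream of the RefSeq transcription start was held for Pdgfra, Cspg4, Olig2, Enpp6 and Bmp4, that is 5 of the 8 genes, in build GRCm38.p6. The 250 bases before the start are shown for Pdgfra, Enpp6 and Bmp4. These 3 genes were chosen because they followed markers of different cell types across mice, as described at the end. The windows of Cspg4 and Olig2 ran 71 and 93 bases into the annotated gene and are not shown. The windows lie at chr5:75152001-75152250 on the plus strand for Pdgfra, at chr8:46986637-46986886 on the plus strand for Enpp6 and at chr14:46390670-46390919 on the minus strand for Bmp4, and each is written 5′ to 3′. Capitals mark the only match in these 3 windows to any of 4 motifs searched on both strands, the E-box forms CAGCTG and CATATG and the SOX-type motifs AACAAT and ACAAAG.
Pdgfra: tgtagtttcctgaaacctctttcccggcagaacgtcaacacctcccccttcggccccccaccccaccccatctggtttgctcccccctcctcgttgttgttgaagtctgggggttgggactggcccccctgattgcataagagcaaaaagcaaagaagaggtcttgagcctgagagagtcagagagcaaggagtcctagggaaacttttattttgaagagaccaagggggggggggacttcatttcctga
Enpp6: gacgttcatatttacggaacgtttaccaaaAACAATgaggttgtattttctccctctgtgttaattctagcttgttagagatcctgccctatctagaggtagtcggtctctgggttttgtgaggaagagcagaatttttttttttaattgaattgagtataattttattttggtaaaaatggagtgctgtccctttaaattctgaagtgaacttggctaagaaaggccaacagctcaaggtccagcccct
Bmp4: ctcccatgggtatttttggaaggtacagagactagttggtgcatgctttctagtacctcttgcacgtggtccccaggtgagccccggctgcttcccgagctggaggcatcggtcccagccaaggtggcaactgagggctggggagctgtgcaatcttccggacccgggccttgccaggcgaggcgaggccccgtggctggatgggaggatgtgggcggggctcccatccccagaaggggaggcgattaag
The GC content of these windows was 54.4% for Pdgfra, 38.4% for Enpp6 and 63.2% for Bmp4. AACAAT occurred once in the Enpp6 window, 220 bases before the start, and was present in 9.4% of the 32851 promoter windows of the same length. The Olig2 window, not shown, also held AACAAT once, 67 bases before the start, and the Cspg4 window held none of the 4 motifs. CAGCTG was present in 13.0%, CATATG in 3.5% and ACAAAG in 16.5% of all windows, and none of these 3 was found in the windows shown. A match is a string of letters and does not show that a factor binds there.

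The positions of the genes and the annotation around them bear on these counts. On mm10, Pdgfra lies at chr5:75152292-75198215 on the plus strand, Cspg4 at chr9:56865033-56899870 on the plus strand, Olig1 at chr16:91269772-91271933 on the plus strand, Olig2 at chr16:91225457-91228677 on the plus strand and Sox10 at chr15:79154908-79165240 on the minus strand. Gpr17 lies at chr18:31942997-31949636 on the minus strand, Enpp6 at chr8:46986887-47096762 on the plus strand and Bmp4 at chr14:46383520-46390669 on the minus strand. All are protein-coding, and the counts cover their exons. The exons of Pdgfra share 652 of 10024 bases with other annotated genes, most of them on the opposite strand, those of Olig1 157 of 2162, those of Gpr17 188 of 5195 and those of Bmp4 89 of 2248. Reads from those bases cannot be told apart by strand, since the kit does not mark it. Cspg4, Olig2, Sox10 and Enpp6 share no exon base.

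Gene counts summed to 16479658 to 42177775 in each mouse, except at 8 months, where 7 of 8 mice had 6818809 to 11675280 reads and Fmn2+/+ replicate 1 had 43921030. Levels are given as CPM, the counts divided by the scaled library size, with scaling by the trimmed mean of M-values (TMM) over all mice. Fmn2 itself, counted over the whole gene, was at 93.1 to 109 CPM in Fmn2+/+ and 22.2 to 27.4 CPM in Fmn2-/- mice of 3 months, and at 90.8 ± 15.2 (SD, n = 3) and 24.2 ± 2.68 CPM (SD, n = 5) at 8 months. In the cross it went against the labels: the mice labelled FMN2-/-_APP had 90.9 ± 6.86 CPM (SD, n = 7) and the mice labelled FMN2 +/+ APP only 18.9 to 23.4 CPM, so these groups are called by their labels throughout. The summed level of 6 dentate granule cell markers was 644 to 1221 CPM in every mouse of the DG groups and 203 to 245 CPM in the libraries titled PFC, where 6 cortical neuron markers summed to 637 to 729 CPM against 120 to 351 CPM elsewhere. Fmn2-/- replicates 2 and 3 of 8 months differed by a chi-square per degree of freedom of 1.62, less than the 1.72 and 2.15 between repeat runs of 1 mouse. Calls and main values of the 8 genes that rest on them, and those of Bcas1 and C1ql1, are also given with both summed as 1 sample. Choroid plexus markers, summed over 5 genes, stood at 4123 CPM in Fmn2-/- replicate 4 of 3 months and at 9125 and 5990 CPM in replicates 4 and 5 labelled FMN2 +/+ APP, against 1.99 to 607 CPM in all other mice.

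All 8 genes were detected in every mouse. Per kilobase of exon, which allows genes to be compared, Olig1 was the highest of the 8 in Fmn2+/+ DG of 3 months with 18.4 ± 1.92 CPM per kb (SD, n = 5). Gpr17 (7.80 ± 0.887), Sox10 (7.19 ± 1.02), Olig2 (6.94 ± 0.207) and Pdgfra (6.64 ± 0.344) lay close to each other on the same scale. Enpp6 (0.964 ± 0.288), Cspg4 (0.959 ± 0.0672) and Bmp4 (0.901 ± 0.220) were the lowest. Bmp4 rested on few reads, between 7 and 230 per mouse, and Enpp6 on 43 to 221.

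The receptor gene Pdgfra was the steadiest of the 8 across groups. Its group means ran from 52.4 ± 3.90 CPM (SD, n = 6) in wild-type mice titled PFC to 67.4 ± 3.02 CPM (SD, n = 5) in Fmn2-/- mice of 8 months, a ratio of 1.29. Cspg4 had the widest span, with a ratio of 2.14 between 21.3 ± 2.25 CPM (SD, n = 6) in APP mice titled PFC and 9.94 ± 1.35 CPM (SD, n = 9) in mice labelled FMN2 +/+ APP. Neighbours in the order of group means overlapped for all 8 genes, with a single exception: the lowest Cspg4 value in wild-type mice titled PFC lay above the highest of Fmn2-/- mice of 8 months. The span between the highest and the lowest group mean was 2.05-fold for Sox10, 1.97-fold for Bmp4, 1.84-fold for Enpp6, 1.69-fold for Olig2, 1.43-fold for Olig1 and 1.42-fold for Gpr17.

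**Figure D1:**
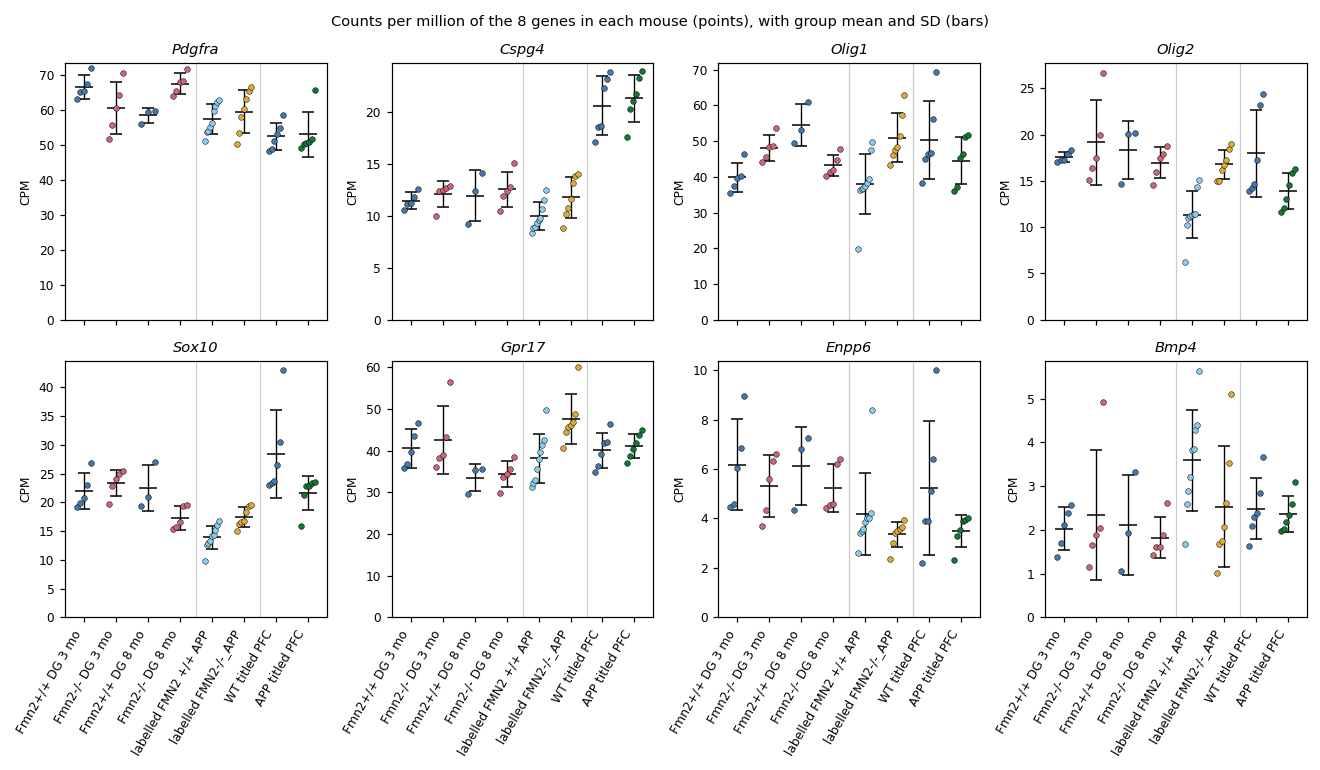
Level of each of the 8 genes (y axis, CPM from 0) in the 8 groups (x axis), with 1 point per mouse and black bars for the group mean and SD. Cspg4 is higher in both groups titled PFC (17.1 to 23.9 CPM) than in all DG groups (8.36 to 15.1 CPM), while Pdgfra stays between 48.3 and 72.1 CPM in all mice.

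The first question was whether loss of Fmn2 changes these genes in DG at 3 months. A gene was called where its log2 fold change was 0.25 or more in size and its adjusted p was under 0.05, from the quasi-likelihood test of edgeR, adjusted over all genes tested by Benjamini-Hochberg (edgeR adjusted p). None of the 8 genes was called at 3 months by edgeR or by DESeq2, against 0.0301% of all genes tested, and 1 of the 8 had an unadjusted p under 0.05. That gene was Olig1, which was at 37.3, 35.4, 39.8, 46.4 and 40.3 CPM in Fmn2+/+ mice and at 44.2, 53.6, 48.6, 45.5 and 48.5 CPM in Fmn2-/- mice. All but 1 Fmn2+/+ mouse lay below all Fmn2-/- mice, and the log2 fold change was 0.26 (standard error 0.077, edgeR adjusted p = 0.278). The other 7 genes had log2 fold changes between -0.23 (Enpp6) and 0.18 (Bmp4). Their 95% intervals reached from -0.29 to 0.01 for Pdgfra and from -0.50 to 0.87 for Bmp4. Lane and genotype can hardly be told apart at this age, since lane 5 held all Fmn2+/+ mice with 1 Fmn2-/- mouse, and lane 6 the remaining Fmn2-/- mice.

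At 8 months none of the 8 genes was called by edgeR, against 1.13% of all genes tested, while 3 had an unadjusted p under 0.05 and DESeq2 called 1, Olig1. Pdgfra was at 56.0, 59.8 and 59.5 CPM in Fmn2+/+ mice and at 63.9, 68.2, 68.1, 65.3 and 71.7 CPM in Fmn2-/- mice. Every Fmn2-/- mouse thus lay above every Fmn2+/+ mouse, with a log2 fold change of 0.22 (standard error 0.068, edgeR adjusted p = 0.106). Olig1 was the reverse, at 61, 53.0 and 49.4 CPM in Fmn2+/+ mice and 44.6, 41.5, 42.0, 40.2 and 47.7 CPM in Fmn2-/- mice. The groups did not overlap, and the log2 fold change was -0.34 (standard error 0.084, edgeR adjusted p = 0.0629, and 0.0249 with DESeq2). Within lane 7, which leaves out the deep Fmn2+/+ replicate 1, the Olig1 difference was -0.25 on the log2 scale. Sox10, which activates myelin genes together with the Olig factors, was at 21, 19.4 and 27 CPM in Fmn2+/+ mice and 16.5, 19.6, 15.3, 15.7 and 19.3 CPM in Fmn2-/- mice. The lowest Fmn2+/+ value lay inside the Fmn2-/- range, and the log2 fold change was -0.37 (standard error 0.13, edgeR adjusted p = 0.125). Leaving out Fmn2+/+ replicate 2, the shallowest library, brought Olig1 (-0.36, edgeR adjusted p = 0.0147) and Sox10 (-0.44, edgeR adjusted p = 0.0320) past the threshold. Leaving out replicate 3 did so for Olig1 (-0.40, edgeR adjusted p = 0.0480). Of the 8 fits that left out 1 mouse, 2 called Olig1 and 1 called Sox10. Over all genes these fits called between 4 and 3087, against 166 in the main fit. With Fmn2-/- replicates 2 and 3 summed, Olig1 was at -0.34 (edgeR adjusted p = 0.137), Pdgfra at 0.20 (edgeR adjusted p = 0.200) and Sox10 at -0.39 (edgeR adjusted p = 0.177). The other 5 genes had log2 fold changes between -0.21 (Bmp4) and 0.04 (Cspg4 and Gpr17). In bulk tissue, fewer cells of a type and less RNA per cell cannot be told apart.

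In the main fit the effect of genotype on Olig1 differed between the ages, which partly coincide with lane. The difference of both log2 fold changes, 8 months minus 3 months, was -0.61 (standard error 0.12, edgeR adjusted p = 0.0137), and Olig1 was the only one of the 8 genes called for it, against 3.73% of all genes tested. With Fmn2-/- replicates 2 and 3 summed the difference was -0.59 (edgeR adjusted p = 0.0306), and without Fmn2+/+ replicate 1 of 8 months it was -0.52 (edgeR adjusted p = 0.10). With the correction for exon length and GC content described below it was -0.21 (edgeR adjusted p = 0.547) and was not called. Pdgfra pointed the other way, with a difference of 0.35 (standard error 0.11, edgeR adjusted p = 0.0675, and 0.0265 with DESeq2, which called it). It passed the threshold without Fmn2-/- replicate 4 of 3 months, the mouse rich in choroid plexus markers (0.43, edgeR adjusted p = 0.0253), and without Fmn2+/+ replicate 2 of 8 months (0.38, edgeR adjusted p = 0.0367). Sox10 stood at -0.47 (standard error 0.17, edgeR adjusted p = 0.108), and at -0.53 without Fmn2+/+ replicate 2 of 8 months (edgeR adjusted p = 0.0472). Of the 18 fits that left out 1 mouse, 17 called Olig1, 2 Pdgfra and 1 Sox10. Over all genes these fits called between 8 and 2791, against 635 in the main fit. With Fmn2-/- replicates 2 and 3 of 8 months summed, Pdgfra was at 0.36 (edgeR adjusted p = 0.0917) and Sox10 at -0.46 (edgeR adjusted p = 0.139). Cspg4 (-0.04, interval -0.38 to 0.29) and Olig2 (-0.26, interval -0.64 to 0.13) did not pass. The intervals of Gpr17 (-0.37 to 0.29), Enpp6 (-0.59 to 0.71) and Bmp4 (-1.46 to 0.65) were wide as well.

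Age itself was compared within each genotype. In Fmn2+/+ DG, 1 of the 8 genes was called, against 9.21% of all genes tested. Olig1 rose from 39.8 ± 4.16 CPM (SD, n = 5) at 3 months to 54.5 ± 5.94 CPM (SD, n = 3) at 8 months, with no overlap and a log2 fold change of 0.47 (standard error 0.089, edgeR adjusted p = 0.00301). Leaving out each mouse in turn kept the call, with values between 0.37 and 0.52. Gpr17, a receptor of committed precursors, was at 35.9 to 46.7 CPM at 3 months and at 29.7 to 35.6 CPM at 8 months, and its log2 fold change of -0.26 did not pass (standard error 0.13, edgeR adjusted p = 0.197). Pdgfra had -0.18 (edgeR adjusted p = 0.145), and the other 5 genes lay between -0.07 (Enpp6) and 0.10 (Cspg4).

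In Fmn2-/- DG a different gene was called, again 1 of 8, against 6.44% of all genes tested. Sox10 was at 25.5, 24, 24.9, 22.9 and 19.7 CPM at 3 months and at 16.5, 19.6, 15.3, 15.7 and 19.3 CPM at 8 months. The lowest 3-month value, 19.7 CPM, lay just above the highest 8-month value of 19.6 CPM. The log2 fold change was -0.43 (standard error 0.11, edgeR adjusted p = 0.0201), and -0.43 with replicates 2 and 3 of 8 months summed (edgeR adjusted p = 0.0345). The call was lost without replicate 3 (-0.39, edgeR adjusted p = 0.0675) or without replicate 4 of 8 months (-0.39, edgeR adjusted p = 0.0615). Gpr17 had a log2 fold change of -0.30 (standard error 0.11, edgeR adjusted p = 0.10) and Olig1 one of -0.15 (standard error 0.078, edgeR adjusted p = 0.275), or -0.30 (edgeR adjusted p = 0.156) and -0.13 (edgeR adjusted p = 0.404) with both mice summed. The other 5 genes lay between -0.34 (Bmp4) and 0.16 (Pdgfra). Both ages were sequenced on different lanes and at different depths, which cannot be told apart from age.

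**Figure D2:**
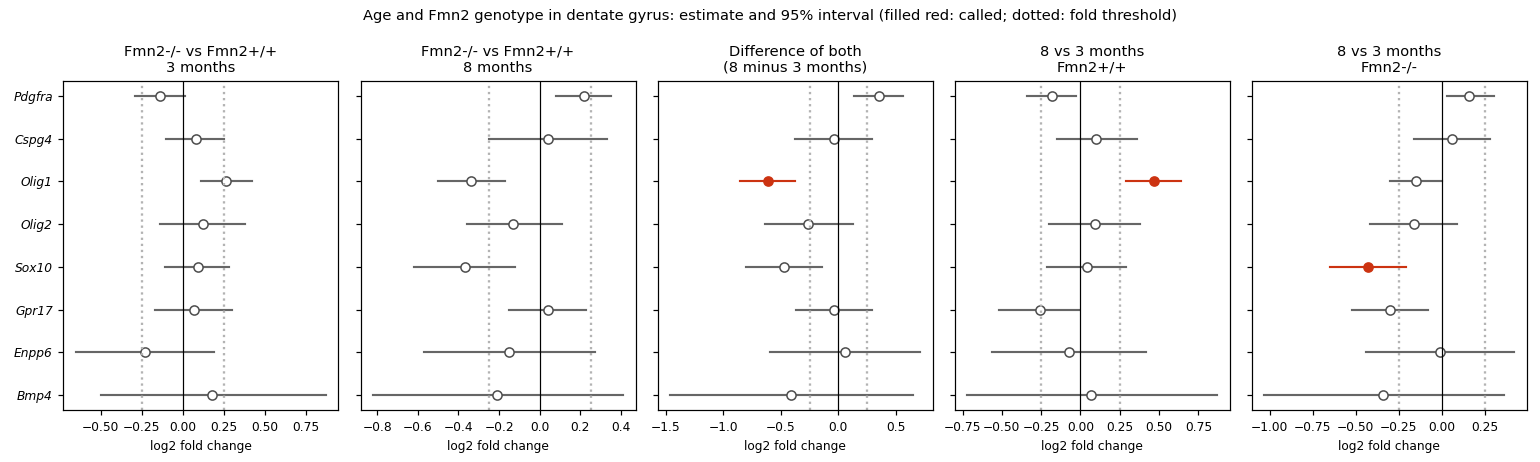
Log2 fold change (x axis) of each gene (y axis) for genotype at 3 and 8 months, for the difference between the ages and for age in each genotype, with 95% intervals as bars, filled red points for called genes and dotted lines at 0.25 either side of 0. Olig1 is the called gene for the difference (-0.61) and for age in Fmn2+/+ mice (0.47), and Sox10 for age in Fmn2-/- mice (-0.43).

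Other genes of the lineage gave few calls in these mice. Among 12 other precursor genes the median log2 fold change of genotype was -0.06 at 3 months and 0.09 at 8 months, beside 0.00 and 0.01 for all genes tested, and none was called. Of 13 genes of newly formed oligodendrocytes, Bcas1, an early myelin-associated gene, was called lower in Fmn2-/- mice of 8 months (-0.54, edgeR adjusted p = 0.0434), and none at 3 months. At 8 months 1.13% of all genes tested were called. The Bcas1 call was lost with Fmn2-/- replicates 2 and 3 summed (-0.59, edgeR adjusted p = 0.0936), with the length and GC correction described next (-0.54, edgeR adjusted p = 0.0718) and with lane as a covariate (-0.61, edgeR adjusted p = 0.258). C1ql1 is a secreted C1q-like protein gene used as a precursor marker. It was the only 1 of the 12 called for age in Fmn2-/- mice (-0.55, edgeR adjusted p = 0.0490), against 6.44% of all genes tested. This call was lost with both mice summed (-0.52, edgeR adjusted p = 0.102) and with the correction (-0.23, edgeR adjusted p = 0.457). Neither the 5 other PDGF ligand and receptor genes nor the 19 BMP signalling genes gave a call for genotype at 3 or 8 months. For age in Fmn2+/+ mice 3 of the 19 BMP signalling genes were called, against 9.21% of all genes tested. Id3, an inhibitor of differentiation that BMP induces (0.73, edgeR adjusted p = 0.00408), and the BMP antagonist gene Chrd (0.64, edgeR adjusted p = 0.0333) were higher. The mediator Smad4 was lower (-0.27, edgeR adjusted p = 0.0422). No alternative was run for these 3 genes. Mature oligodendrocyte markers, 10 in all, had medians of -0.05 at 3 months and -0.22 at 8 months for genotype, with none called, and summed to 2702 to 3460 CPM in Fmn2+/+ and 2029 to 2889 CPM in Fmn2-/- mice of 8 months. At that age the summed levels of 7 astrocyte markers (3730 to 4228 CPM in Fmn2+/+ and 4363 to 4951 CPM in Fmn2-/- mice) and of 6 microglia markers (269 to 305 and 306 to 341 CPM) did not overlap between genotypes. The sums of every other marker list overlapped at that age, and the share of all genes without overlap was not counted. Of the astrocyte and microglia markers, 1 was called, the astrocyte water channel gene Aqp4 (0.46, edgeR adjusted p = 0.0459). No alternative was run for Aqp4, and over all genes the calls at 8 months fell from 166 to 5 with Fmn2-/- replicates 2 and 3 summed. The part of astrocytes and microglia in the Pdgfra and Olig1 values of 8 months was not tested.

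The values of Olig1 and Sox10 moved with the GC content of genes. Their exons have 61.1% and 62.7% GC, against 49.2% in Pdgfra and 46.3% in Enpp6. Over all genes tested, the median log2 difference between the ages in the genotype effect was 0.06 for the 4733 genes of 45 to 50% GC, -0.24 for the 3197 genes of 55 to 60% GC and -0.41 for the 577 genes of 60 to 65% GC. In Fmn2-/- mice the median log2 change with age was -0.23 for genes of 60 to 65% GC, and 0.18 in Fmn2+/+ mice. A fit corrected for exon length and GC content gave a difference between the ages of -0.21 for Olig1 (edgeR adjusted p = 0.547), -0.07 for Sox10 (edgeR adjusted p = 0.921) and 0.20 for Pdgfra (edgeR adjusted p = 0.426). In the same fit Olig1 with age in Fmn2+/+ mice was at 0.26 (edgeR adjusted p = 0.128) and Sox10 with age in Fmn2-/- mice at -0.21 (edgeR adjusted p = 0.414), so that each of the 3 calls of the first experiment was lost. Genotype at 8 months stood at -0.06 for Olig1 (edgeR adjusted p = 0.808) and 0.10 for Pdgfra (edgeR adjusted p = 0.462).

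**Figure D3:**
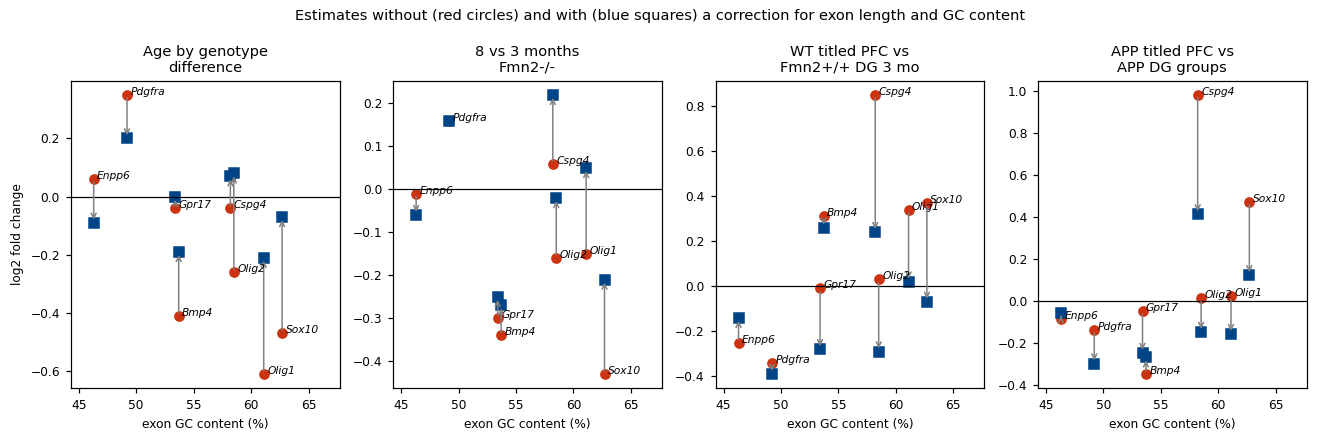
Log2 fold change (y axis) of each gene against its exon GC content (x axis, percent) without (red circles) and with (blue squares) a correction for exon length and GC content, for 4 comparisons. Olig1 moves from -0.61 to -0.21 in the first panel and Cspg4 from 0.85 to 0.24 in the third. Exon length and GC content are corrected together, and their shares in these moves were not separated.

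The cross asked what Fmn2 does in DG that carries the amyloid transgenes. From here on the log2 fold change had to be 0.5 or more in size for a call. Of the 8 genes, 1 was called between the mice labelled FMN2-/-_APP and those labelled FMN2 +/+ APP, against 0.774% of all genes tested. Olig2, the factor that specifies the lineage, had a lowest value of 15.0, a median of 16.7 and a highest value of 19.0 CPM in the mice labelled FMN2-/-_APP, and 6.27, 11.3 and 15.1 CPM in those labelled FMN2 +/+ APP. The ranges met only at 15.0 and 15.1 CPM. The log2 fold change was 0.56 (standard error 0.13, edgeR adjusted p = 0.0347), that is higher in the mice labelled FMN2-/-_APP, in which Fmn2 counts were high. The call was lost in 12 of 16 fits that left out 1 mouse, with values from 0.49 to 0.62 and edgeR adjusted p from 0.0119 to 0.0705. Without replicate 8 labelled FMN2 +/+ APP, the lowest mouse for Olig1, Olig2 and Sox10, it was 0.49 (edgeR adjusted p = 0.0119), under the fold threshold. Within lanes the difference was 0.53 on lane 5, 0.41 on lane 6 and 0.40 between the pair of mice run on lanes 4 and 7.

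Olig1 (0.43, edgeR adjusted p = 0.117), Sox10 (0.33, edgeR adjusted p = 0.0880) and Gpr17 (0.32, edgeR adjusted p = 0.0951) had positive values in the same comparison that did not pass. Gpr17 ran from 40.7 through a median of 46.2 to 60.1 CPM in the mice labelled FMN2-/-_APP and from 31.3 through 38.0 to 49.8 CPM in the others. Pdgfra was nearly level at 0.05, with an interval of -0.08 to 0.18, and Cspg4 was at 0.24 (edgeR adjusted p = 0.266). Enpp6 (-0.31, edgeR adjusted p = 0.447) and Bmp4 (-0.51, edgeR adjusted p = 0.389) were negative and did not pass. Beside Bmp4, the 6 fibroblast and meninges markers had a median of -0.68 and the 5 choroid plexus markers one of -2.89, with none called, and their part in its value was not tested. None of the 12 other precursor genes was called, and their median was 0.20 beside 0.01 for all genes. The 10 mature oligodendrocyte markers had a median of 0.33, with none called, and summed to 1713 to 3019 CPM in the mice labelled FMN2-/-_APP and 1262 to 2027 CPM in those labelled FMN2 +/+ APP. Without the 2 mice labelled FMN2 +/+ APP that were richest in choroid plexus markers, Olig2 was at 0.55 (edgeR adjusted p = 0.106).

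The third experiment compared APP with wild-type mice in the libraries titled PFC. None of the 8 genes was called by edgeR or DESeq2, against 2.34% of all genes tested, and 3 had an unadjusted p under 0.05. Sox10 ran from 15.9 through a median of 22.9 to 23.6 CPM in APP mice and from 23.1 through 25.2 to 43.0 CPM in wild-type mice, with a log2 fold change of -0.38 (standard error 0.14, edgeR adjusted p = 0.196). Olig2 stood at -0.35 (standard error 0.14, edgeR adjusted p = 0.258). Enpp6, a choline phosphodiesterase gene, ran from 2.33 through 3.71 to 4.01 CPM in APP mice and from 2.21 through 4.50 to 10 CPM in wild-type mice, at -0.55 (standard error 0.26, edgeR adjusted p = 0.346). Wild-type replicates 3 and 4 were the highest for Sox10, Olig2 and Enpp6. These mice also had the highest mature oligodendrocyte marker sums, 6448 and 4144 CPM against 2290 to 2658 CPM in the other wild-type mice and 1420 to 2167 CPM in APP mice. All 10 of those markers had negative values, with a median of -0.76. Without both mice Sox10 was at -0.14, Olig2 at -0.09 and Enpp6 at -0.09 on the log2 scale. Leaving out the highest values had to lower the wild-type means of these genes. Pdgfra (0.03, interval -0.11 to 0.17), Cspg4 (0.06, interval -0.12 to 0.25) and Gpr17 (0.05, interval -0.08 to 0.18) had the narrowest intervals, while Olig1 was at -0.16 and Bmp4 at -0.08. Of 6 microglia markers 5 were called higher in APP mice, with a median of 0.69. All APP mice were sequenced on lane 7 and all wild-type mice on lane 5, so lane and genotype cannot be told apart.

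Between experiments, region or transgene and experiment cannot be told apart, and the following values describe the libraries. The mice titled PFC are labelled 4 months and the DG mice set against them 3 months. Age and region therefore cannot be told apart either. Wild-type mice titled PFC were compared with Fmn2+/+ DG of 3 months, and 1 of the 8 genes was called, against 43.6% of all genes tested. Cspg4 was at 18.5, 18.6, 22.3, 23.8, 23.1 and 17.1 CPM in the mice titled PFC and at 11.2, 12.6, 11.8, 11.1 and 10.5 CPM in DG. The groups did not overlap, with a log2 fold change of 0.85 (standard error 0.12, edgeR adjusted p = 3.18e-08). Pdgfra, made by the same precursor cells, was lower in the mice titled PFC without overlap (48.3 to 58.6 against 63 to 72.1 CPM) at -0.34 (standard error 0.075, edgeR adjusted p = 9.90e-05), which is under the fold threshold. Cspg4 is also made by pericytes, and of 7 pericyte and smooth muscle markers 2 were called higher and none lower, with a median of 0.05, summed levels of 191 to 252 CPM in the mice titled PFC and 187 to 272 CPM in DG, and no marker at 0. Of 4 endothelial markers 3 were called higher, with a median of 0.54. The part of either cell type in the Cspg4 result was not tested. Corrected for exon length and GC content, Cspg4 was at 0.24 (edgeR adjusted p = 0.0215), under the fold threshold, and Pdgfra at -0.39 (edgeR adjusted p = 1.02e-05). The median log2 value of all genes of 55 to 60% GC was 0.37 in this comparison, and Cspg4 has 58.2%. Without the 2 wild-type mice titled PFC that were richest in mature oligodendrocyte markers, Enpp6 was called at -0.71 (edgeR adjusted p = 0.0121), against -0.25 with them (edgeR adjusted p = 0.386). These 2 mice also had the highest Enpp6 values of their group. Leaving them out therefore had to lower its mean, and nothing further is drawn from this call. Olig1 (0.34, edgeR adjusted p = 0.0314) and Sox10 (0.37, edgeR adjusted p = 0.0119) were under the fold threshold, and Olig2 (0.03), Gpr17 (-0.01) and Bmp4 (0.31) did not pass.

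APP mice titled PFC, compared with the mean of both DG groups of the cross, again gave Cspg4. Both comparisons came from the same fit and set mice titled PFC against DG, so they share the limits of region, experiment and age. All these APP mice were on lane 7, and most mice of the cross on lanes 5 and 6. Cspg4 was at 17.6 to 23.9 CPM against 8.36 to 14 CPM, a log2 fold change of 0.98 (standard error 0.087, edgeR adjusted p = 1.72e-13), and it was the only one of the 8 called, against 45.9% of all genes tested. With the length and GC correction it was 0.41 (edgeR adjusted p = 2.53e-06), under the fold threshold. Sox10 stood at 0.47 (standard error 0.10, edgeR adjusted p = 5.17e-05) and at 0.12 with the correction (edgeR adjusted p = 0.309). Pdgfra was at -0.14 (edgeR adjusted p = 0.0327), under the fold threshold, and the other 5 genes lay between -0.35 (Bmp4) and 0.02 (Olig1). The 12 other precursor genes split in this comparison, with 4 called higher, among them Pcdh15 (2.20), Susd5 (1.55) and Sox5 (1.39), and 3 lower. In the comparison of the wild-type mice 3 were called higher, among them Pcdh15 (1.66) and Susd5 (1.57), and 2 lower, among them Ptprz1, a receptor phosphatase gene (-0.74).

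The 2 DG groups of the cross were each set against Fmn2+/+ DG of 3 months, so both comparisons share their control mice. Fmn2 itself had a log2 fold change of -2.32 in the mice labelled FMN2 +/+ APP and -0.17 in those labelled FMN2-/-_APP. In the mice labelled FMN2 +/+ APP, low Fmn2 counts, transgene and experiment therefore cannot be told apart. In the mice labelled FMN2-/-_APP, 1 of the 8 genes was called, against 19.2% of all genes tested. Enpp6 was at 2.37, 3.5 and 3.94 CPM (lowest, median and highest), below all 5 control values of 6.03, 4.48, 6.87, 8.95 and 4.57 CPM. Its log2 fold change was -0.88 (standard error 0.24, edgeR adjusted p = 0.00259), and without each control mouse in turn it remained between -0.98 and -0.72. Olig1 (0.36, edgeR adjusted p = 0.0275) and Sox10 (-0.33, edgeR adjusted p = 0.0297) were under the fold threshold, and the other 5 genes lay between -0.16 (Pdgfra) and 0.32 (Bmp4).

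In the mice labelled FMN2 +/+ APP, 4 of the 8 genes were called, against 18.1% of all genes tested. Olig2 was at 6.27, 11.3 and 15.1 CPM (lowest, median and highest) against 17.3, 17.2, 18.3, 17.9 and 17.0 CPM in the controls, a log2 fold change of -0.63 (standard error 0.14, edgeR adjusted p = 2.64e-04). Sox10 was at 9.85, 14.1 and 16.8 CPM against 19.8, 19.2, 23.1, 26.8 and 20.7 CPM, at -0.66 (standard error 0.12, edgeR adjusted p = 1.54e-05). Neither gene overlapped with the controls. Enpp6 (-0.58, standard error 0.23, edgeR adjusted p = 0.0368) was lower and Bmp4 (0.83, standard error 0.30, edgeR adjusted p = 0.0213) was higher, with overlapping ranges. Pdgfra had no value in common with the controls (51.1 to 62.9 against 63 to 72.1 CPM) but stayed under the fold threshold at -0.21 (standard error 0.068, edgeR adjusted p = 0.0103). Cspg4 (-0.20), Olig1 (-0.07) and Gpr17 (-0.09) did not pass. The Enpp6 call was lost without control replicate 1 (-0.59, edgeR adjusted p = 0.0561), 3 (-0.54, edgeR adjusted p = 0.0845) or 4 (-0.41, edgeR adjusted p = 0.171), and the Bmp4 call without control replicate 1 (0.78, edgeR adjusted p = 0.0544) or 3 (0.71, edgeR adjusted p = 0.0764). The length and GC correction left Olig2 and Sox10 called and put Enpp6 (-0.53) and Bmp4 (0.68) at an edgeR adjusted p of 0.0520 each. Without the 2 mice richest in choroid plexus markers, Olig2 (-0.62), Sox10 (-0.66) and Bmp4 (0.83) were still called and Enpp6 was at -0.55 (edgeR adjusted p = 0.0689).

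Cell type markers moved in the same comparisons, and their part in the results was not tested. In the mice labelled FMN2 +/+ APP, 9 of 10 mature oligodendrocyte markers were called lower than in the controls, with a median of -0.91 and sums of 1262 to 2027 CPM against 2200 to 4332 CPM. In the mice labelled FMN2-/-_APP, 5 of the 10 were called lower, with a median of -0.54 and sums of 1713 to 3019 CPM. Beside Bmp4, 4 of 6 fibroblast and meninges markers were called higher in the mice labelled FMN2 +/+ APP, with a median of 1.25 and sums of 90.4 to 231 CPM against 48.9 to 108 CPM, and 5 of 5 choroid plexus markers were called higher. Of 7 pericyte and smooth muscle markers none was called higher and 2 lower, with a median of 0.37 and sums of 140 to 311 CPM against 187 to 272 CPM. Of 4 endothelial markers none was called higher and 1 lower, with a median of -0.10. All 4 general neuron markers were called lower, with a median of -0.92, and 3 of the 4 in the mice labelled FMN2-/-_APP.

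The counts of the related lists in the mice labelled FMN2 +/+ APP stand beside 18.1% called of all genes tested. Of 12 other precursor genes 4 were called lower than in the controls and none higher. Among them were the proteoglycan gene Vcan (-0.52), Sox5 (-0.84) and Gjc3 (-0.60). The list median was -0.16 beside 0.03 for all genes. Of 13 genes of newly formed oligodendrocytes 3 were called lower, Myrf, the factor that drives myelin gene expression (-1.09), Zfp488 (-0.84) and Bcas1 (-0.97), and none higher. Of 14 lineage transcription factor genes 2 were called higher, among them Hes5 (1.18), and 4 lower, among them Myrf and Zfp488. Among 19 BMP signalling genes 5 were called higher and none lower, among them Smad5 (0.56), Id3 (0.90) and Chrd (0.69). In the mice labelled FMN2-/-_APP, 19.2% of all genes tested were called against the same controls. Zfp488 was at -0.93, Myrf at -0.69 and Bcas1 at -0.54, while Sox5 (-0.67) was the only other precursor gene called. Hes5 (1.58) was called higher in these mice too. The BMP signalling genes called in them included Smad5 (0.56) and Chrd (0.75), both higher, and Nog (-0.60), which was lower.

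**Figure D4:**
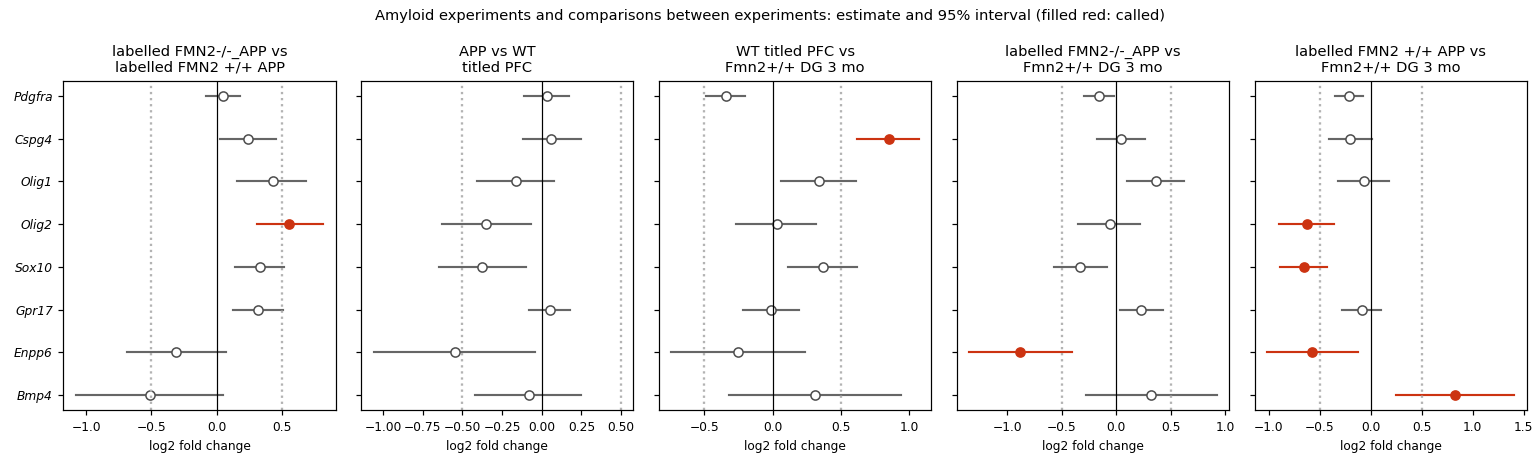
Log2 fold change (x axis) of each gene (y axis) within the cross, within the libraries titled PFC and for 3 comparisons with Fmn2+/+ DG of 3 months, with 95% intervals as bars, filled red points for called genes and dotted lines at 0.5 either side of 0. Olig2 is called in the first panel (0.56), no gene in the second, Cspg4 in the third (0.85), Enpp6 in the fourth (-0.88) and 4 genes in the fifth.

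Across the 46 mice, each taken as the deviation of its log2 CPM from its group mean, the 8 genes did not vary as 1 set. The 28 pairs had Pearson correlations from -0.04 to 0.81 with a median of 0.27, while the median correlation of a member with all other genes lay between -0.02 and 0.02. The transcription factors formed the closest group, with 0.81 for Olig1 and Olig2, which are neighbours on chromosome 16, 0.69 for Olig1 and Sox10 and 0.67 for Olig2 and Sox10. Over the 34 DG mice alone these were 0.77, 0.63 and 0.61. Other pairs moved both ways over the DG mice. Sox10 and Enpp6 went from 0.59 to 0.39 and Olig1 and Enpp6 from 0.29 to 0.07, while Olig1 and Gpr17 went from 0.27 to 0.48. The points share library depth and GC content, and these values are a description without a test.

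Over all 46 mice the members followed markers of different cell types. Pdgfra went with the summed level of the other precursor markers (0.60), a list that does not hold it. Enpp6 (0.77) and Sox10 (0.71) went with mature oligodendrocyte markers, and Olig1 (0.45) and Olig2 (0.40) less closely. Olig1 had a value of the same size but negative with dentate granule cell markers (-0.45), and Pdgfra had 0.40 with choroid plexus markers. The values with marker lists were not taken over the DG mice alone. The 46 mice include wild-type replicates 3 and 4 titled PFC, the highest of their group for mature oligodendrocyte markers, Enpp6 and Sox10. Bmp4 went with markers of fibroblasts and meninges (0.75), of pericytes and smooth muscle (0.71) and of endothelium (0.66), and had 0.01 with mature oligodendrocyte markers and -0.22 with precursor markers. Cspg4 (0.35 with endothelial markers) and Gpr17 (0.28 with precursor markers) followed none of the 11 marker lists closely. Pdgfra, Enpp6 and Bmp4, whose upstream sequences are printed above, thus each went with a different list.

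The genes most like the mean of the 8 members were Lrig3 (0.73), Amotl2 (0.72), Hepacam (0.71), Kcnk13 (0.70) and Zbtb7b (0.70), out of 18933 genes ranked. The gene most like each member was Yes1 for Pdgfra (0.66), Llgl1 for Cspg4 (0.72), Zbtb7b for Olig1 (0.78), Sirt2 for Olig2 (0.78), Gltp for Sox10 (0.81), Hspa5 for Gpr17 (0.73), Fa2h for Enpp6 (0.83) and Anxa2 for Bmp4 (0.86). Fa2h encodes a fatty acid hydroxylase of myelin lipid synthesis and Hspa5 a chaperone of the endoplasmic reticulum.

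**Figure D5:**
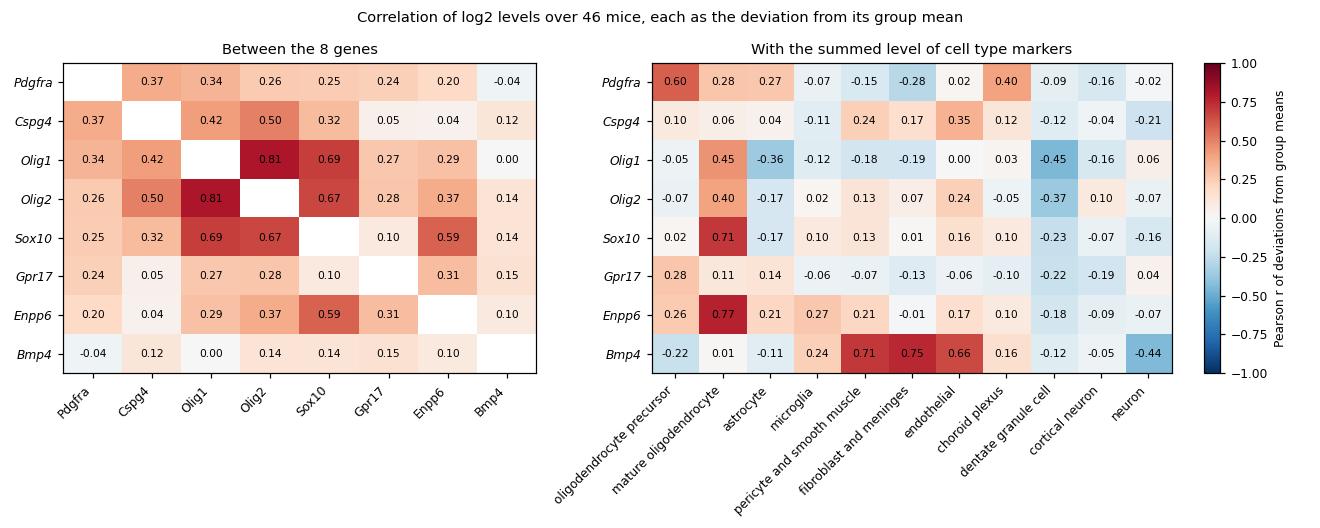
Pearson correlation, over 46 mice, of the deviations of log2 levels from group means, between the 8 genes (left) and between each gene (rows) and the summed level of 11 cell type marker lists (right), which leave out the 8 genes. Olig1 and Olig2 (0.81), Enpp6 and mature oligodendrocyte markers (0.77) and Bmp4 and fibroblast markers (0.75) stand out.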

How the data were processed

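Whole dentate gyrus, or tissue titled PFC, was extracted with TRIZOL and sequenced with the TruSeq RNA v2 kit. The authors aligned reads to mm10 with STAR and deposited whole-number read counts per Ensembl gene, made with HTSeq. The strand setting and the annotation release were not given in the sources used here. The 8 genes and all lists were chosen with earlier results of these data known. The 48 libraries came from 46 mice, and the 2 runs of 2 mice were summed. Groups followed the sample labels. Replicates are separate mice by their labels.

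From the deposited counts, edgeR 4.0.16 in R 4.3.3 (TMM scaling, filterByExpr with a minimum count of 10, quasi-likelihood test, Benjamini-Hochberg adjustment over all genes tested) was run for each comparison. Comparisons between experiments and of levels used 1 fit of 18933 genes over all 46 mice. The threshold was an adjusted p of 0.05 with an absolute log2 fold change of 0.25 for the Fmn2 and age comparisons and 0.5 for the others. Correlations used log2 of CPM plus 0.5. Exon length and GC content came from GENCODE M21 for 48349 genes, and promoters from RefSeq. Alternatives were DESeq2 1.42.0, its size factors in edgeR, no filter, a length and GC correction, a replicate block, lane as a covariate, summed or drawn-down libraries, and leaving out mice. The 8 genes were described in every comparison, by value or by range, and at most 3 called genes of smallest adjusted p from any other list. The scripts were tested on simulated data. Read totals per mouse set the precision, and counting error is largest for Bmp4 and Enpp6. The result of 1 gene of a marker list is not reported here.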

Additional observations from a re-analysis of the deposited data

Results flagged for a closer look

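Mice that stood apart from the rest of their group were found in 8 of 56 sets of 1 gene and 1 group by Dixon's test at the 95% level, where chance gives about 1 in 20. In APP mice titled PFC, replicate 3 had 65.8 CPM of Pdgfra, above the next value of 51.7, and replicate 6 had 15.9 CPM of Sox10, below the next value of 21.3. In wild-type mice titled PFC, replicate 3 had 43.0 CPM of Sox10, above the next value of 30.5, and was also the mouse with the highest mature oligodendrocyte marker sum (6448 CPM). In mice labelled FMN2 +/+ APP, replicate 8 had 19.7 CPM of Olig1, below the next value of 36.4, and replicate 9 had 8.40 CPM of Enpp6, above the next value of 4.23. In mice labelled FMN2-/-_APP, replicate 7 had 60.1 CPM of Gpr17, above the next value of 48.9. In Fmn2-/- mice of 3 months, replicate 5 had 9.92 CPM of Cspg4, below the next value of 12.4, and replicate 2 had 4.93 CPM of Bmp4, above the next value of 2.05.

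The effect of Fmn2 genotype on Olig1 differed between 8 and 3 months by -0.61 on the log2 scale (edgeR adjusted p = 0.0137), a test of the difference itself. With the correction for exon length and GC content it was -0.21 (edgeR adjusted p = 0.547).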

How the results depend on the processing

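Among the 8 genes no called value changed sign under any alternative run. The correction for exon length and GC content left 0 of the 8 called for the difference between the ages, for age in Fmn2+/+ mice, for age in Fmn2-/- mice and in both comparisons of the PFC title with DG, each with 1 otherwise, and 2 in place of 4 between the mice labelled FMN2 +/+ APP and Fmn2+/+ DG. Over all genes, it moved the calls for the difference between the ages from 635 to 20, for age in Fmn2+/+ mice from 1570 to 907 and in Fmn2-/- mice from 1097 to 554. DESeq2 called 1 of the 8 in place of 0 for genotype at 8 months (733 in place of 166 over all genes) and 2 in place of 1 for the difference between the ages (1401 in place of 635). Without a filter on low counts, 1 of the 8 was called for genotype at 8 months (1124 over all genes). With lane as a covariate, or without the 2 mice richest in choroid plexus markers, 0 in place of 1 was called in the cross, where Olig2 stood at 0.47 (edgeR adjusted p = 0.0428) and 0.55 (0.106), and without the latter 56 in place of 129 genes were called over all. Without the 2 wild-type mice titled PFC richest in mature oligodendrocyte markers, 2 in place of 1 were called against Fmn2+/+ DG. The added gene was Enpp6, of which these mice held the highest values in their group. These 2 choices of mice to leave out, and the alternatives for Bcas1 and C1ql1, were made after seeing the data. Leaving out 1 mouse at a time gave 0 to 2 called genes for genotype at 8 months, 0 to 3 for the difference between the ages, 0 to 1 for age in Fmn2-/- mice, 0 to 1 in the cross and, with only the 5 control mice left out in turn, 2 to 4 for the mice labelled FMN2 +/+ APP against Fmn2+/+ DG. Counts over all genes shifted further. For genotype at 3 months, 5 genes became 91 with DESeq2, 14 without the filter, 3 with the DESeq2 size factors, with the length and GC correction or with lane, and 2 with the block. For genotype at 8 months, 166 became 10 with the correction, 4 with the block, 3 with lane, 5 with Fmn2-/- replicates 2 and 3 summed and 31 with reads drawn down to the smallest library. For the difference between the ages, 635 became 399 without the filter, 227 with both mice summed and 0 with the block, which gave 94 in place of 1570 for age in Fmn2+/+ mice and 0 in place of 1097 in Fmn2-/- mice. In the cross 129 became 304 with DESeq2. Leaving out 1 mouse gave 3 to 49 for genotype at 3 months, 4 to 3087 at 8 months, 8 to 2791 for the difference, 469 to 2994 for age in Fmn2+/+ mice and 73 to 171 in the cross. The cause of these shifts was not tested.

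Deviations of same-numbered mice correlated on average at 0.0522 for genotype at 3 months, -0.0357 at 8 months, 0.0693 in the cross and 0.00496 in the mice titled PFC. Mice of different numbers had -0.00993, 0.00917, -0.00877 and -8.98e-04 in the same order. With only 3 to 7 same-numbered pairs in a comparison, these values cannot show whether the numbers pair the mice. With the replicate block 0 in place of 1 was called for the difference between the ages, for age in Fmn2-/- mice and in the cross, where Olig2 stood at 0.48 (edgeR adjusted p = 0.0255). Depth limits the 8-month values, where Bmp4 rested on as few as 7 reads.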
